A study of Homo sapiens with 6 samples.

Results

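The tripartite motif (TRIM) family of ubiquitin ligases was described in PANC1 cells, a human line from a carcinoma of the pancreatic duct, after treatment with gemcitabine, a nucleoside analog used as chemotherapy. Members were all genes of the deposited RNA-seq table whose current symbol is TRIM followed by a number, matched by Ensembl identifier. The rule gave 69 genes of the 20461 in the table and left out 2 readthrough genes that join a TRIM gene to a neighbour, TRIM6-TRIM34 and TRIM39-RPP21. PANC1 cells received either vehicle (0.1% DMSO) or gemcitabine at 50 nM for 48 h, with 2 RNA-seq libraries in each group. DNaseI-seq, which maps open chromatin by its sensitivity to a nuclease, was represented by 1 vehicle and 1 gemcitabine library. The comparison asked which genes change expression in response to the drug. All libraries came from a single cultured line, for which the labels name no genetic change, and the study's methods call the RNA-seq libraries of a group biological replicates.

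TRIM proteins carry a RING finger, 1 or more B-box zinc fingers and a coiled coil at their amino-terminal end, followed in most members by a carboxy-terminal domain that binds the substrate. The RING finger recruits a ubiquitin-loaded E2 enzyme and transfers ubiquitin to the substrate, and the coiled coil pairs the molecules. Many members act in antiviral defence, in autophagy or in the control of transcription, and many genes of the family are induced by interferon.

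Because interferon acts on genes through a short promoter element, the promoters of members that rose or fell are shown first. The RefSeq promoter windows (250 bases before to 50 bases after a transcription start, GRCh38.p14) were searched on both strands for a core of the interferon-stimulated response element (ISRE), spelled as GAAA, 2 bases of any kind, and GAAA again. The search covered 54 members with 73 windows, and the members without a window were TRIM4, TRIM8, TRIM11, TRIM13, TRIM16L, TRIM22, TRIM24, TRIM27, TRIM28, TRIM29, TRIM35, TRIM43, TRIM45, TRIM55 and TRIM60. The 4 members below had higher expression after gemcitabine and held the letters. Each is written 5′ to 3′ on the strand of the gene, with the matching letters in capitals. The stretches are chr11:5685075-5685174 for TRIM5, chr17:15682977-15683076 for TRIM16 and chr11:4393664-4393693 for TRIM21, all on the minus strand, and chr15:44736421-44736520 on the plus strand for TRIM69. The stretch of TRIM21 lies just after the start, and the others lie before it.
TRIM5: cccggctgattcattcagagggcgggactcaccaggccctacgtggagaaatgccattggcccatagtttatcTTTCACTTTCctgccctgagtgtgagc
TRIM16: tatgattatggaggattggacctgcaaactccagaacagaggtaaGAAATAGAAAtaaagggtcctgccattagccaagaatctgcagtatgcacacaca
TRIM21: tctgagcgGAAACTGAAAGTGAAAtaggga
TRIM69: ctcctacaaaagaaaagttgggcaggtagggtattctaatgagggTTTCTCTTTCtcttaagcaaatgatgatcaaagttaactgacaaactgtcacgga

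The letters also stood in the promoters of 2 members with lower expression. The stretch of TRIM14 is chr9:98119223-98119322 on the minus strand, and that of TRIM44 is chr11:35662675-35662774 on the plus strand. TRIM38, the member with the smallest p-value of the comparison, held no match in its window, and its last 100 bases before the start, chr6:25962702-25962801 on the plus strand, are given for comparison. These examples and the motifs were chosen after the members' values had been seen.
TRIM14: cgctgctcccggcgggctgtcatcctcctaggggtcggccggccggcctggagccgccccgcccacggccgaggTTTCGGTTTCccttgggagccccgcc
TRIM44: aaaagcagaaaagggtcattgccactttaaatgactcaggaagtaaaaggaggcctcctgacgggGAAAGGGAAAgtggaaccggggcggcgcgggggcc
TRIM38: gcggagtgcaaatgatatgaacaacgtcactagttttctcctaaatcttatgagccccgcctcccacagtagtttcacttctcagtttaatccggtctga

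The ISRE letters occurred in 10 of the 73 TRIM windows (13.7%), against 3.57% of all 35116 windows. By gene, they were found in 4 of the 8 members with a window that were higher after gemcitabine and in 2 of 6 that were lower (TRIM14 and TRIM44). They were also found in 3 of 21 that did not pass the test (TRIM2, TRIM26 and TRIM34) and in 1 of 19 that could not be tested (TRIM64C). No share by gene was computed over all genes, or over all higher or lower genes, so these counts by class have no background. The match began 27 bases before the start in TRIM5, 26 bases before it in TRIM14, 35 bases before it in TRIM44, 62 bases before it in TRIM69 and 80 bases before it in TRIM16. TRIM21 held 2 overlapping matches, which began at bases 18 and 24 after the start.

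Other motifs were searched in the same windows. The gamma-activated site, TTCNNNGAA, was found in 19.2% of the TRIM windows and in 7.66% of all windows. The NF-kB site was found in 5.48% of the TRIM windows against 11.3% of all, the antioxidant response element, TGACNNNGC, in 11% against 13.3%, and the E-box, CACGTG, in 4.11% against 7.26%. The gamma-activated site was found in 11 members, of which 4 did not pass, 1 rose (TRIM16) and 1 fell (TRIM7). The other 5 could not be tested (TRIM40, TRIM49, TRIM49B, TRIM49C and TRIM64B). Whether members with related sequences share a match was not tested, so the matches cannot be taken as independent. No match of these 4 motifs overlapped an ISRE match in a member. A match is a description of the letters and not a binding site.

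The RNA-seq libraries held 15153593 and 15766237 fragments assigned to genes for vehicle and 13194533 and 13275457 for gemcitabine. At these depths 3 fragments are worth 0.190 to 0.227 CPM, counts scaled to the assigned fragments of a library. Libraries of a group differed by more than sampling noise, since the chi-square per gene averaged 2.17 for vehicle and 5.16 for gemcitabine, so none was a copy of another. Of the markers set for the line, KRT7, KRT8, KRT18 and VIM were high (336 to 1658 FPKM over the libraries), while KRT19, EPCAM, CDH1 and SOX9 stood at or below 6.91 FPKM. Of 10 markers of other cell types, CD3E, ALB, INS and PRSS1 were at 0 in every library and PECAM1 was not found by its symbol. The summed level of the 9 markers found was 10.8 to 10.96 FPKM in vehicle and 20.8 to 25 FPKM in gemcitabine, nearly all of it from CD68 (10.7 to 24.6 FPKM). The part of such cells in the changes below was not tested. In bulk samples, fewer cells of a kind and less RNA per cell cannot be told apart.

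PANC1 cells expressed most of the family, at widely different levels. FPKM counts fragments for each kilobase of a transcript relative to how deeply the library was sequenced, and allows levels to be compared between genes. A mean of at least 0.1 FPKM over the vehicle libraries, the limit that the study used for differential expression, was reached by 45 of the 69 members (65.2%), against 67.5% of all genes. At least 1 FPKM was reached by 40 members (58%), against 57.5% of all genes. The median over the 45 expressed members was 9.61 FPKM (quartiles of 3.88 and 21.1 FPKM), and over all expressed genes it was 14.1 FPKM (quartiles of 3.26 and 41.6 FPKM).

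TRIM28, the corepressor that KRAB zinc finger proteins bring to chromatin, stood far above every other member, at 618 and 619 FPKM in the vehicle libraries. Next came TRIM25, a ligase of the RIG-I pathway, with 45.5 and 53.6 FPKM in vehicle. The paralogs TRIM16L (51.3 and 42.9 FPKM) and TRIM16 (40.4 and 42.6 FPKM) followed. The libraries of TRIM25 and TRIM16L overlapped, and TRIM16L and TRIM16 were apart by less than the spread of TRIM16L, so their order was not resolved.

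TRIM44 had 39.9 and 41.1 FPKM, TRIM47 had 35.4 and 39.6 FPKM, and TRIM44 overlapped with TRIM16 while TRIM47 lay below TRIM44 by less than the spread of its own libraries. TRIM14 (34.3 and 29.4 FPKM) and TRIM27 (30.9 and 31.1 FPKM) came next and overlapped each other. TRIM8 (28.5 and 20.3 FPKM) and TRIM59 (24.2 and 24.3 FPKM), which closed the first 10, overlapped as well.

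**Figure D1:**
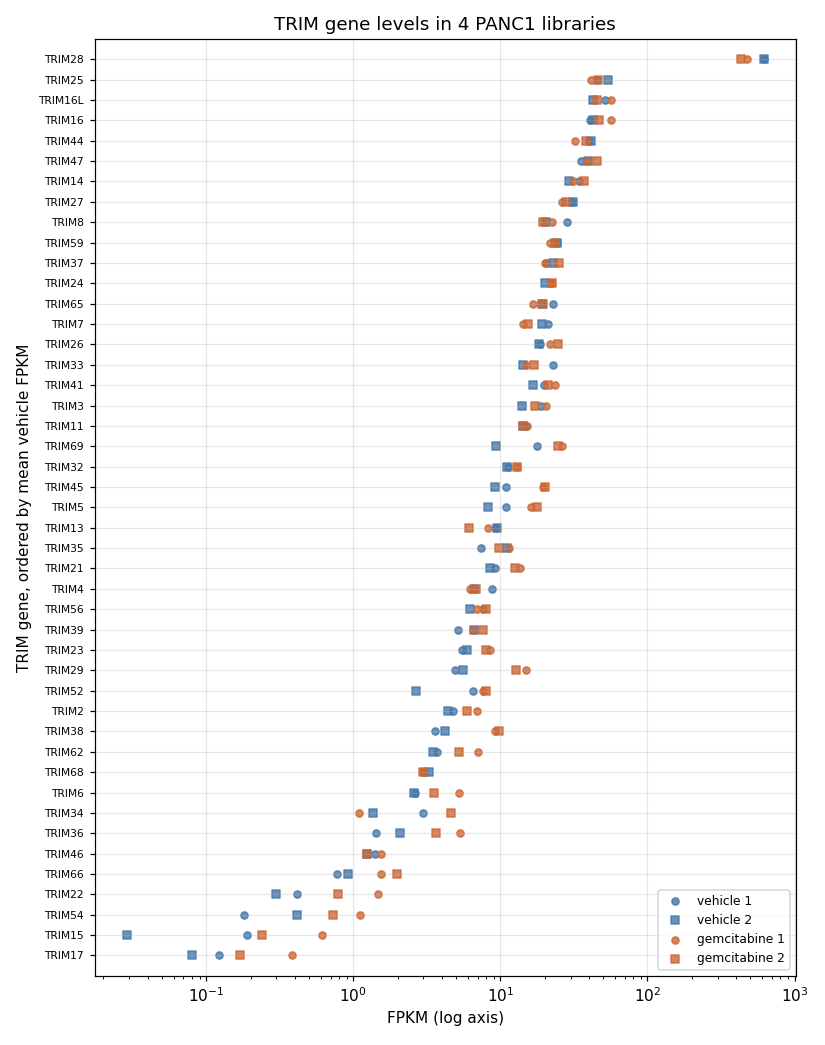
FPKM on a log axis for the 45 TRIM genes with a mean of at least 0.1 FPKM in vehicle, ordered by that mean, with 1 point per library (blue for vehicle, orange for gemcitabine, circles and squares for the libraries of a group). TRIM28 stands apart at 431 to 619 FPKM, and TRIM38 and TRIM29 are among the members whose gemcitabine points lie to the right of both vehicle points.

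At the other end, 10 members had no fragment in any library (TRIM31, TRIM40, TRIM42, TRIM43, TRIM48, TRIM51, TRIM61, TRIM64B, TRIM64C and TRIM72). With 3 counts as the limit that a count of 0 allows, their level was under 0.190 to 0.227 CPM, a limit that covers counting error only. A further 12 had fragments but fewer than 10 over the libraries (TRIM10, TRIM49, TRIM49B, TRIM49C, TRIM50, TRIM55, TRIM58, TRIM60, TRIM63, TRIM67, TRIM71 and TRIM74). TRIM55 and TRIM63 encode muscle RING finger proteins, which belong to heart and skeletal muscle. The remaining 47 members were tested.

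In the comparison of gemcitabine with vehicle, TRIM genes moved in both directions. Of the 47 tested, 11 were higher (23.4%), against a background of 18.5% of all 14854 genes tested, and 9 were lower (19.1%), against a background of 20%. These shares lie near those of all genes and are not a result about the family. Calls were made with edgeR's quasi-likelihood test at an adjusted p under 0.05. The median log2 fold change of the tested members was 0.06, and that of all genes 0.0069. When counts were scaled by library totals, the split became 14 higher and 7 lower, while over all genes it went from 2751 higher and 2975 lower to 4073 and 1977 as the median of all genes rose to 0.12.

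The study's criteria add a fold change over 1.5, a mean of at least 0.1 FPKM in 1 condition and a difference of at least 1 FPKM. With the adjusted p and the fold change of counts from edgeR, in place of the values of Cuffdiff, they left 6 higher members (12.8%, background 5.69%), TRIM38, TRIM62, TRIM45, TRIM6, TRIM21 and TRIM29, and 1 lower member (2.13%, background 4.42%), TRIM13. With the fold of mean FPKM, an alternative chosen after the values had been seen, they left 7 higher (14.9%, background 8.13%), in which TRIM5 and TRIM69 came in and TRIM21 went out, and 0 lower (background 3.16%), since the mean of TRIM13 went from 9.40 to 7.16 FPKM. That count of 0 rests on the fold limit, as 9 lower members passed edgeR's adjusted p and 10 an unadjusted p under 0.05. Of all 14854 genes, 7018 reached that unadjusted p in either direction.

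Without vehicle library 1 the calls at adjusted p under 0.05 numbered 7 higher and 5 lower (background 8.85% and 10%), and without vehicle library 2 they numbered 8 higher and 5 lower (background 8.42% and 9.52%). On the log2(FPKM + 1) scale limma called 3 higher (TRIM29, TRIM38 and TRIM45) and 0 lower (background 2.69% and 0.996%). At an unadjusted p under 0.05 that fit had 15 of 47 members higher and 2 lower, and 4645 of all 14854 genes in either direction. Its median log2 fold change was 0.08 over all genes.

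**Figure D2:**
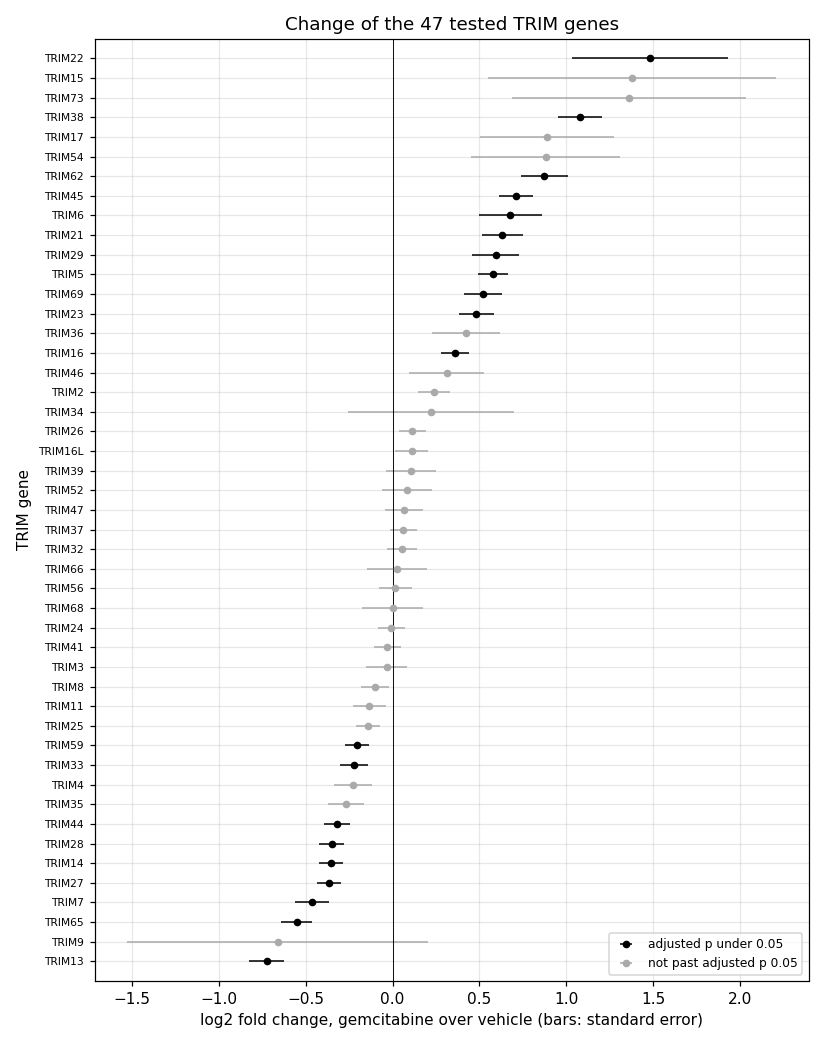
Log2 fold change of counts, gemcitabine over vehicle, for the 47 tested TRIM genes, with bars of 1 standard error; black marks an adjusted p under 0.05 and grey the others. The called genes run from -0.72 (TRIM13) to 1.48 (TRIM22), and the widest bars belong to genes with few fragments such as TRIM15 and TRIM73.

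Members known from innate immunity and antiviral defence moved apart. Of 13 tested in this group, 6 rose (TRIM5, TRIM6, TRIM21, TRIM22, TRIM23 and TRIM38), 3 fell (TRIM14, TRIM27 and TRIM65) and 4 did not pass the test (TRIM25, TRIM26, TRIM34 and TRIM56), with a median log2 fold change of 0.22. Over all genes, as above, 18.5% were higher and 20% lower. The group was a list written with earlier results of these data known, so its counts depend on which members were listed. TRIM29, described below as a regulator of inflammatory signalling, is among the members not in it. Values by library below are counts in CPM after TMM scaling, which corrects for differences in composition between libraries.

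TRIM38, which targets adaptors of Toll-like receptor signalling for degradation and thereby limits inflammatory signalling, is encoded at chr6:25963030-25991459 (hg19). It stood at 10.3 and 13.3 CPM in vehicle and at 25.5 and 24.5 CPM in gemcitabine. The groups did not overlap, and the gemcitabine libraries lay close together. Its log2 fold change was 1.08 ± 0.12 (SE, n = 2 per group, adjusted p = 1.23e-05 by the Benjamini-Hochberg method after edgeR's quasi-likelihood test).

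TRIM21, the cytosolic receptor for antibody-coated virus, rose from 12.5 and 11.9 CPM to 18.1 and 19.6 CPM. Its log2 fold change was 0.63 ± 0.12 (SE, adjusted p = 0.000729 by edgeR). TRIM23, whose carboxy-terminal domain is a GTPase of the ARF family, rose from 17.8 and 19.0 CPM to 25.2 and 26.1 CPM, with a log2 fold change of 0.48 ± 0.10 (SE, adjusted p = 0.00162 by edgeR). The groups of both genes were separate. The call of TRIM23 was lost without vehicle library 1.

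TRIM65, a ligase for the RNA sensor MDA5, fell from 56.6 and 55.4 CPM to 35.2 and 41.3 CPM. This was a log2 fold change of -0.55 ± 0.09 (SE, adjusted p = 0.000191 by edgeR), the second largest fall among members called. TRIM27, a RING ligase with both nuclear and cytosolic substrates, fell from 94.7 and 96.0 CPM to 72.0 and 75.9 CPM (log2 fold change -0.37 ± 0.07 SE, adjusted p = 0.000732 by edgeR). In both genes the vehicle libraries agreed closely and lay above the gemcitabine libraries.

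TRIM14, an adaptor at mitochondria without a RING finger, fell in counts from 116 and 112 CPM to 86.5 and 92.0 CPM (log2 fold change -0.35 ± 0.07 SE, adjusted p = 0.000911 by edgeR). Its FPKM did not follow, with 34.3 and 29.4 in vehicle and 31.1 and 36.9 in gemcitabine, and its call was lost without vehicle library 1. An exon of TRIM14 overlaps NANS on the opposite strand, and the counting is not stated to have used strand, so reads of the pair cannot be told apart. TRIM25 had 79.3 and 83.1 CPM in vehicle and 73.3 and 74.0 CPM in gemcitabine, a log2 fold change of -0.14 ± 0.07 (SE, adjusted p = 0.122 by edgeR). Its exons overlap DGKE on the opposite strand and C17orf67 on the same strand.

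TRIM5, TRIM6, TRIM22 and TRIM34 lie together on chromosome 11, between chr11:5617339 and chr11:5959849 (hg19), and their products restrict retroviruses or resemble those that do. The first 3 rose. TRIM5, which recognises the retroviral capsid, stood at 26.8 and 25.9 CPM in vehicle and at 39.0 and 39.8 CPM in gemcitabine, with little spread in either group. Its log2 fold change was 0.58 ± 0.09 (SE, adjusted p = 0.00012 by edgeR).

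TRIM22, an interferon-induced nuclear member, had few fragments: 12 and 6 in vehicle against 27 and 20 in gemcitabine. These correspond to 0.83 and 0.39 CPM and to 1.95 and 1.47 CPM. The groups did not overlap, and the fitted log2 fold change of 1.48 ± 0.45 (SE, adjusted p = 0.0171 by edgeR) was the highest of the tested members. It ran from 1.05 without vehicle library 2, where TRIM38 stood higher at 1.28, to 2.10 without vehicle library 1. The call was lost without vehicle library 2, without gemcitabine library 1 and with DESeq2 (adjusted p = 0.116). Mean FPKM was 0.35 in vehicle and 1.13 in gemcitabine, short of the study's minimum difference.

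TRIM6, which makes free ubiquitin chains that activate a kinase of interferon signalling, rose from 4.85 and 6.44 CPM to 9.26 and 8.84 CPM (log2 fold change 0.68 ± 0.18 SE, adjusted p = 0.00884 by edgeR). The call was lost without vehicle library 1 and with DESeq2 (adjusted p = 0.0605). TRIM34 had 57.3 and 49.9 fragments in vehicle but 16.9 and 98.4 in gemcitabine, and with a log2 fold change of 0.22 ± 0.48 (SE, adjusted p = 0.752 by edgeR) it did not pass. The gemcitabine libraries of TRIM34 lay on either side of the vehicle libraries, so that its change was 1.00 without gemcitabine library 1 and -1.55 without gemcitabine library 2.

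The same cluster holds the readthrough gene TRIM6-TRIM34, which shares exons with both genes, and fragments were divided among them. TRIM6-TRIM34 received 7.2 and 21.0 fragments in vehicle and 92.6 and 7.2 in gemcitabine, high in the library in which TRIM34 was low. The sum of TRIM34 and TRIM6-TRIM34 was steady within groups, with 64.5 and 70.9 fragments in vehicle against 109.5 and 105.6 in gemcitabine. A fit with that sum, added after the values had been seen, gave a log2 fold change of 0.78 (adjusted p = 0.00327 by edgeR). With the readthrough fragments given to TRIM6 instead, TRIM6 changed by 0.94 (adjusted p = 0.00479 by edgeR). The values of TRIM6 and TRIM34 are therefore uncertain. Exons of TRIM5, TRIM16 and TRIM22 also overlap other annotated genes on the same strand.

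**Figure D3:**
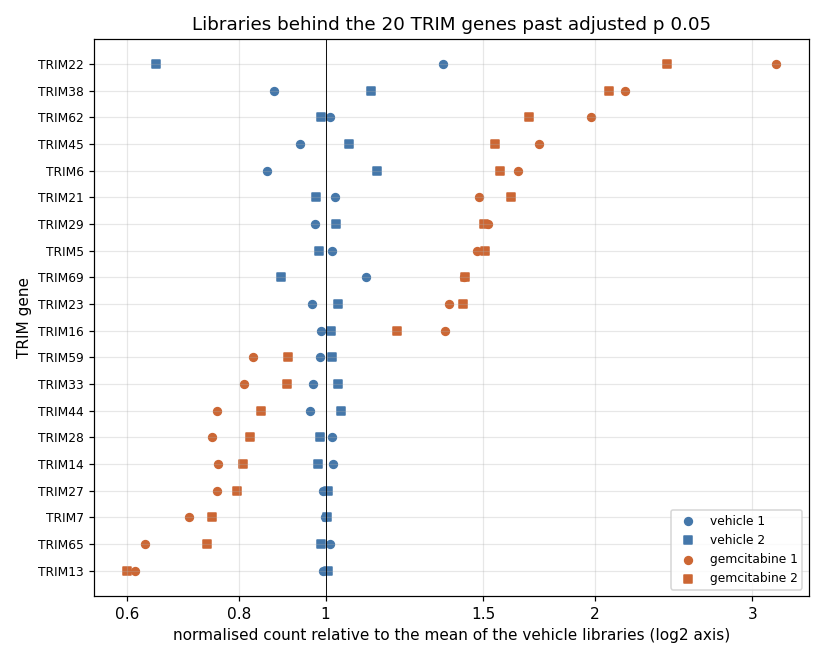
Normalised count of each library divided by the mean of the vehicle libraries, on a log2 axis, for the 20 TRIM genes past an adjusted p of 0.05 (blue for vehicle, orange for gemcitabine, circles and squares for the libraries of a group). Vehicle and gemcitabine points are separate in every gene shown, and the vehicle points lie furthest apart in TRIM22, which had 12 and 6 fragments. The genes were selected by a test on these same counts, so their separation is no further support. The groups were also separate in members that did not pass, such as TRIM25 and TRIM8.

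The nuclear corepressors with a PHD finger and a bromodomain, TRIM24, TRIM28, TRIM33 and TRIM66, showed 2 falls and no rise. TRIM28 fell from 506 and 490.3 CPM to 371 and 409.6 CPM, a log2 fold change of -0.35 ± 0.07 (SE, adjusted p = 0.00115 by edgeR). The groups were well apart, but the call was lost without vehicle library 1 (adjusted p = 0.0676).

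Because it is so abundant, TRIM28 supplied 25.4% and 24.5% of all TRIM fragments in vehicle and 20.4% and 21.6% in gemcitabine. TRIM fragments as a whole summed to 1908 and 1931 CPM in vehicle and to 1911 and 1943 CPM in gemcitabine, before TMM scaling.

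TRIM33, a ligase for SMAD4 and a chromatin reader, had 62.0 and 66.1 CPM in vehicle and 51.9 and 58.0 CPM in gemcitabine. Its log2 fold change of -0.22 ± 0.08 (SE, adjusted p = 0.0397 by edgeR) did not pass without either vehicle library, without gemcitabine library 1, or with DESeq2, library totals or no filter on low counts. TRIM24, a coregulator of nuclear receptors and a ligase for p53, had 77.5 and 80.8 CPM against 73.9 and 83.7 CPM, a difference of -0.0066 ± 0.08 on the log2 scale (SE, adjusted p = 0.952 by edgeR) that turned to 0.10 with library totals. TRIM66 had 9.15 and 7.94 CPM against 9.87 and 7.49 CPM (log2 fold change 0.02 ± 0.17 SE, adjusted p = 0.925 by edgeR). The libraries of TRIM24 and TRIM66 overlapped between the groups.

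Of the 5 members listed as lacking a RING finger, which cannot recruit an E2 enzyme through it, 2 rose, 2 fell (TRIM14 and TRIM44) and TRIM66 did not pass. TRIM16L, described below, was not placed in this list. TRIM29, a regulator of the DNA damage response and of inflammatory signalling, rose from 8.60 and 9.06 CPM to 13.4 and 13.3 CPM, with a log2 fold change of 0.59 ± 0.14 (SE, adjusted p = 0.00291 by edgeR). TRIM16, which takes part in the autophagy of damaged lysosomes, rose from 49.8 and 51.1 CPM to 68.7 and 60.6 CPM, with a log2 fold change of 0.36 ± 0.08 (SE, adjusted p = 0.0028 by edgeR). The counts of TRIM16 held fractions, and its exons overlap ENSG00000251537 on the same strand. Those of its near copy TRIM16L were whole in every library, and how reads that match both copies were assigned is not stated. TRIM16L had 50.2 and 47.1 CPM against 57.6 and 47.4 CPM and did not pass (log2 fold change 0.11 ± 0.09 SE, adjusted p = 0.379 by edgeR). Without gemcitabine library 2 the change of TRIM16L was 0.25 and passed (adjusted p = 0.00936 by edgeR).

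TRIM44, which carries a zinc finger of ubiquitin-specific proteases in place of the RING, fell from 110.35 and 119.7 CPM to 87.0 and 97.3 CPM. Its log2 fold change was -0.32 ± 0.07 (SE, adjusted p = 0.00362 by edgeR). The call of TRIM29 was lost without vehicle library 1, that of TRIM44 without vehicle library 2, and that of TRIM16 without either of them.

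Both members with a transmembrane segment fell, where 20% of all genes were lower. TRIM13, a ligase of the endoplasmic reticulum membrane, is encoded at chr13:50570024-50594617 (hg19) and stood at 26.2 and 26.5 CPM in vehicle and at 16.1 and 15.8 CPM in gemcitabine. With a log2 fold change of -0.72 ± 0.10 (SE, adjusted p = 6.45e-05 by edgeR) it had the largest fall among members called, and libraries within a group were nearly equal. TRIM13 shares an exon with KCNRG on the same strand. TRIM59 fell from 117 and 121 CPM to 98.4 and 108 CPM (log2 fold change -0.20 ± 0.07 SE, adjusted p = 0.0309 by edgeR), and only without gemcitabine library 2, of the libraries left out in turn, did its call hold, which was also lost with DESeq2, library totals and no filter. Exons of TRIM59 overlap SMC4 on the opposite strand and ENSG00000248710 on the same strand, and its counts hold fractions.

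The called members outside the groups above were 3 that rose and 1 that fell. Ligases that did not pass are not part of this count. TRIM62 rose from 8.81 and 8.60 CPM to 17.2 and 14.7 CPM, with a log2 fold change of 0.87 ± 0.14 (SE, adjusted p = 0.000171 by edgeR). TRIM45, which carries a filamin repeat, rose from 22.8 and 25.9 CPM to 42.2 and 37.7 CPM, with a log2 fold change of 0.71 ± 0.10 (SE, adjusted p = 5.6e-05 by edgeR). Every gemcitabine library of these genes lay above both vehicle libraries.

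TRIM69, a SPRY-domain ligase, rose from 23.0 and 18.4 CPM to 29.6 and 29.7 CPM, with a log2 fold change of 0.52 ± 0.11 (SE, adjusted p = 0.00183 by edgeR), and its vehicle libraries were further apart than its gemcitabine libraries. TRIM7, first known as a partner of glycogenin, fell from 25.7 and 25.9 CPM to 18.2 and 19.2 CPM, with a log2 fold change of -0.46 ± 0.10 (SE, adjusted p = 0.00196 by edgeR). The calls of TRIM69 and TRIM7 were lost without vehicle library 2.

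The 27 members that did not pass ran from -0.66 to 1.38 on the log2 scale. The highest of them rested on few reads: TRIM15 had 2 and 2 fragments in vehicle and 7 and 3 in gemcitabine, a ratio of 2.92 with an exact 95% counting interval of 0.842 to 12.8. TRIM73 had 3 and 4 fragments against 12 and 5 (log2 fold change 1.36 ± 0.67 SE, adjusted p = 0.126 by edgeR). Without gemcitabine library 1 the change of TRIM73 was 0.63, and without gemcitabine library 2 it was 1.84 and passed (adjusted p = 0.0395 by edgeR), so its value rests on single libraries. A change of TRIM15 was not detectable at this depth. The abundant TRIM47 (20.3 and 20.4 against 19.6 and 23.0 CPM) and TRIM8 (53.6 and 52.7 against 46.9 and 52.1 CPM) had log2 fold changes of 0.06 ± 0.11 and -0.10 ± 0.08 (SE), the latter turning to 0.0067 with library totals.

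FPKM and counts did not tell the same story for every member. FPKM is summed over isoforms, each divided by its own length, so it can move when reads shift between isoforms of unlike length. Among 45 members with at least 0.1 FPKM in both conditions, the log2 ratio of mean FPKM differed from the log2 fold change of counts by more than 0.5 in 7 (15.6%), against 7.92% of 13491 genes. In all 7 (TRIM15, TRIM17, TRIM29, TRIM36, TRIM52, TRIM54 and TRIM66) the FPKM ratio was the larger. The median of the difference was 0.16 for TRIM genes and 0.12 for all genes, so an offset in this direction was not particular to the family. TMM scaling was applied to the counts only. With library totals in its place, the counts of the 14854 genes shifted by a median of 0.12, against 0.0069 with TMM. How much of the offset, and of the 7 differences, came from scaling was not tested.

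TRIM29 had 4.93 and 5.60 FPKM in vehicle and a mean of 13.9 FPKM in gemcitabine, a log2 ratio of 1.40 where counts gave 0.59. For TRIM66 the mean went from 0.84 to 1.77 FPKM, a log2 ratio of 1.07, while counts gave 0.02. TRIM36, a microtubule-associated member, went from a mean of 1.75 to 4.47 FPKM, a log2 ratio of 1.35 against 0.42 ± 0.19 (SE) in counts, where it did not pass (adjusted p = 0.0981 by edgeR). This comparison was made after the values had been seen, and the share of each isoform was not tested.

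**Figure D4:**
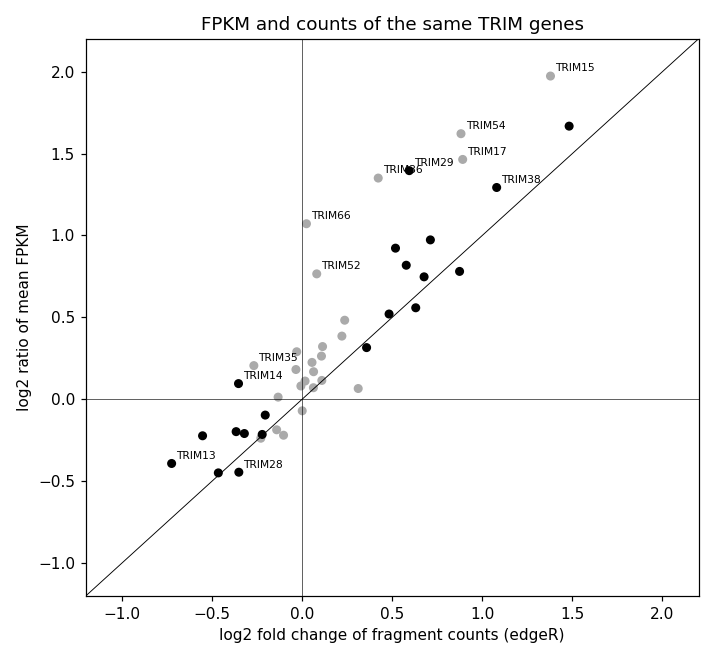
Log2 ratio of mean FPKM against log2 fold change of counts for 45 TRIM genes with at least 0.1 FPKM in both conditions; the diagonal marks equality, black an adjusted p under 0.05 in counts and grey the others. TRIM29, TRIM36, TRIM52 and TRIM66 lie well above the diagonal, and TRIM14 lies below 0 in counts and above 0 in FPKM.

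Genes that work with TRIM proteins were described from lists written for this purpose. No gene stood in 2 lists. Their counts and medians stand beside 18.5% higher, 20% lower and a median of 0.0069 over all genes.

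Of 12 tested relatives outside the rule, 2 rose and 3 fell (median log2 fold change -0.14). PML, the organiser of nuclear bodies and itself a tripartite motif protein, rose from 43.96 and 41.6 CPM to 69.7 and 69.0 CPM (log2 fold change 0.70 ± 0.07 SE, adjusted p = 6.45e-06 by edgeR). MID1, a microtubule-bound ligase, rose by 0.26 ± 0.07 (SE, adjusted p = 0.00817 by edgeR), and its paralog MID2 had -0.26 ± 0.25 (SE, adjusted p = 0.435 by edgeR). SPRYD3, which carries a SPRY domain, changed by -0.91 ± 0.10 and FSD1L by -0.56 ± 0.19 on the log2 scale (SE, adjusted p = 8.02e-06 and 0.0312 by edgeR).

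Of 18 E2 enzymes and ubiquitin genes, 2 rose (UBE2W by 0.37 and UBB by 0.23) and 7 fell (median -0.17), the largest falls being -0.30 for UBE2K and -0.26 for UBE2E3. UBE2W attaches the first ubiquitin of a chain for several TRIM ligases, and UBB is a ubiquitin gene. Of 15 genes listed around the TRIM28 corepressor, which are not all subunits of a single complex, 1 rose and 10 fell, with a median of -0.23. MORC2, an ATPase of the silencing machinery, fell from 53.9 and 51.1 CPM to 29.0 and 31.7 CPM (log2 fold change -0.79 ± 0.09 SE, adjusted p = 6.62e-06 by edgeR). CBX3, a heterochromatin protein that binds TRIM28, fell by 0.54 on the log2 scale, and the deacetylase HDAC1 rose by 0.28.

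Signalling through RIG-I and TBK1, which TRIM ligases modify at several steps, had 8 genes higher and 3 lower of 20 tested (median 0.14). RIGI, the RNA sensor, rose from 12.8 and 14.1 CPM to 38.0 and 34.4 CPM (log2 fold change 1.43 ± 0.10 SE, adjusted p = 2.27e-07 by edgeR). DHX58, its relative, had 1 and 4 fragments in vehicle against 15 and 9, a ratio of 5.61 with an exact 95% counting interval of 2.10 to 18.8. The adaptor TRAF3 and the kinase TBK1 changed by -0.44 and -0.24. Of 37 interferon-stimulated genes, 20 rose and 1 fell (EIF2AK2, by 0.30 on the log2 scale), with a median of 0.74, and the largest rises were those of OASL (2.63 ± 0.28 SE) and IFIT2 (2.55 ± 0.26 SE). The level of CD68 moved with these changes, as given above, and its part in them was not tested.

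Of 15 autophagy receptors and regulators, 6 rose and 1 fell (median 0.13). OPTN, an autophagy receptor, rose by 0.99 ± 0.07 and LGALS8, a sensor of damaged vesicles, by 0.52 ± 0.14 on the log2 scale (SE), whereas the receptor SQSTM1 changed by -0.19 ± 0.07 (adjusted p = 1.67e-07, 0.00793 and 0.0406 by edgeR). Of 16 genes around p53, which several TRIM ligases target, 10 rose and 0 fell at an adjusted p under 0.05 (median 0.30). The stress cytokine GDF15 rose from 14.7 and 13.7 CPM to 66.6 and 61.4 CPM and TP53INP1 by 1.86 ± 0.10 (SE). Over all of these lists 49 genes rose and 25 fell.

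**Figure D5:**
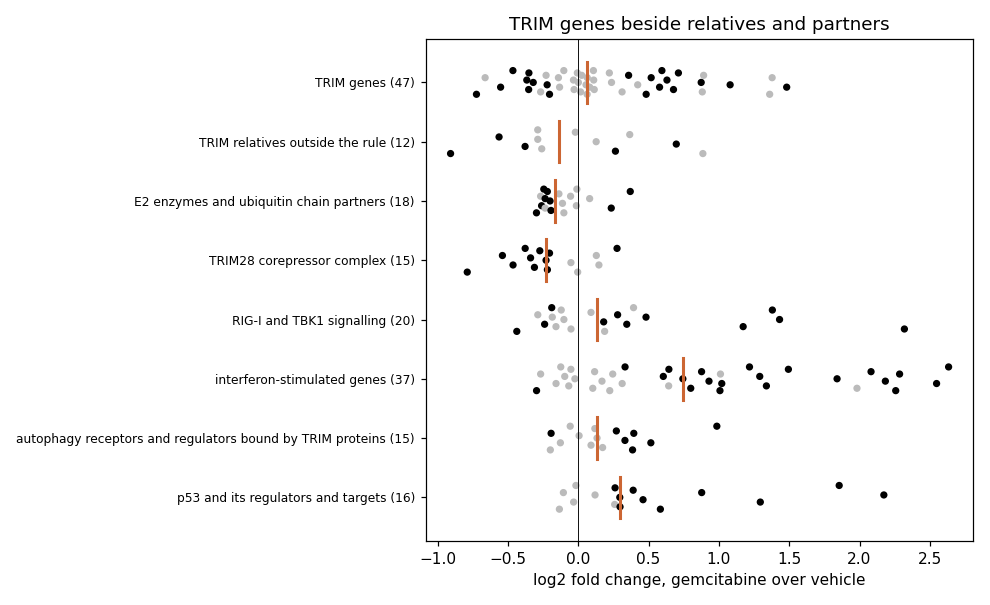
Log2 fold change, gemcitabine over vehicle, of each tested gene in the TRIM family and in 7 lists of relatives and partners (number tested in brackets); black marks an adjusted p under 0.05, grey the others, and the orange bar the median. The interferon-stimulated genes have the highest median, 0.74, and the list labelled TRIM28 corepressor complex the lowest, -0.23, while the TRIM genes lie on both sides of 0.

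Open chromatin was read from the deposited DNaseI peaks, 9606 in vehicle and 10695 in gemcitabine. A peak within 1 kb of an annotated start was found for 10 of the 69 members in vehicle (14.5%, background 22%) and for 16 in gemcitabine (23.2%, background 25.4%). There was 1 library per condition, so that a peak listed in only 1 condition has no replicate check, and no test was made. TRIM23, TRIM24, TRIM28, TRIM35, TRIM37, TRIM41, TRIM45, TRIM56 and TRIM69 had a peak in both lists, and the 52 members without a peak in either list included TRIM25 at 49.6 FPKM.

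A peak in the gemcitabine list alone was found for TRIM11, TRIM13, TRIM36, TRIM38, TRIM44, TRIM46 and TRIM66, and in the vehicle list alone for TRIM26. The peak at TRIM38 (chr6:25962234-25962958, hg19) had a score of 54.3 and that at TRIM13 (chr13:50571168-50571814) 52.1, both close to the lowest score in either list, 50.0. Members with such a peak included TRIM38, whose expression rose, and TRIM13 and TRIM44, whose expression fell. TRIM28 had a score of 166 in vehicle and 98.1 in gemcitabine, which rank peaks within a list and were not compared between the lists. Of the 17 members with a peak in either list, 16 had at least 1 FPKM in vehicle, and of the 52 without a peak, 24 did. Over all genes this was 5448 of 6026 with a peak and 6112 of 13593 without one.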

How the data were processed

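RNA-seq of 2 vehicle and 2 gemcitabine libraries and DNaseI-seq of 1 library each were used. Per the methods and the submitters' processing notes, single-end reads were aligned to hg19 with TopHat2 (version 2.0.8), and Cuffdiff (version 2.0.2) assigned them to protein-coding genes of Gencode release 15 with at least 10 reads. In the deposited table, estimated counts give the fragments assigned to each gene (86.8% of the values were whole within 1e-06), which can be split among overlapping genes and near copies. The authors also deposited FPKM from Cuffdiff. For DNaseI-seq, the authors called peaks per condition with MACS at a p-value of 1e-05, and the deposited lists hold a score per peak. The table's library index carries no link to the labels' replicate numbers, so numbers here only tell libraries apart.

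Counts were rounded, genes with at least 10 fragments over 4 libraries were kept (14854), and edgeR 4.0.16 (R 4.3.3) was run with TMM scaling, its quasi-likelihood test, Benjamini-Hochberg adjustment over all these genes and no covariate. The script was tested on simulated data. P-values measure the spread between libraries. Each SE was derived from the test, as the absolute log2 fold change divided by the square root of its F statistic. Starts came from Gencode release 44 carried to hg19, and names by Ensembl identifier for 19619 genes. Promoters came from RefSeq. Alternatives were DESeq2 1.42.0, limma 3.58.1 on FPKM, other scalings, filters and limits, a replicate block and each library left out. Genes named were all TRIM genes with an adjusted p under 0.05, the 10 highest in vehicle, those beyond a log2 change of 1, a preset group of corepressors, cluster, immune and RING-less members, PML, MID1 and MID2, and per list the 2 largest rises and falls. The members and lists were chosen with earlier results of these data known. No per-sample column was unmapped. Columns of values scaled by Cuffdiff were not used.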

Additional observations from a re-analysis of the deposited data

How the results depend on the processing

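Of the 20 called TRIM genes, all kept direction and call with DESeq2-type size factors, with edgeR's own filter, with genes failed by Cuffdiff left out, and with both placements of the readthrough fragments, which were added after seeing the data. DESeq2 kept 16 calls (losing TRIM6, TRIM22, TRIM33 and TRIM59), and library totals or no filter kept 18 (losing TRIM33 and TRIM59). limma on log2(FPKM + 1), with or without a minimum of 0.1 FPKM, called 3 TRIM genes higher and 0 lower, with the same counts under the study's criteria. On log2(FPKM + 0.1) limma called 0 higher and 0 lower, and 0 of all genes. At an unadjusted p under 0.05 that fit had 14 of 47 TRIM genes higher and 2 lower, and 4298 of all 14854 genes in either direction. Its median log2 fold change was 0.12 over all genes. The direction of TRIM14 turned in these fits (0.0919 and 0.0944).

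Lists of relatives and partners had 23, 29 and 0 genes higher and 0 lower in the limma fits without the minimum, with it, and with the smaller pseudocount. Their 25 lower calls became 15 with DESeq2, 9 with library totals and 10 at an adjusted p under 0.01. The causes were not tested. Leaving out each library in turn gave 7 to 15 TRIM genes higher and 5 to 10 lower, 6 to 7 and 1 to 3 under the study's criteria, 31 to 50 and 6 to 29 partner genes, and 43 to 46 expressed members. A single library left in an arm was assumed to vary like the other group. Without vehicle library 1 partner genes numbered 31 higher and 6 lower, without vehicle library 2 31 and 7. Without gemcitabine library 2 the study's criteria with the fold of counts gave 3 lower members, and with the fold of mean FPKM over all libraries they gave 0.

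Directions of genes that were not called turned for TRIM24 (0.1026 with library totals, 0.0033 with edgeR's own filter, 0.0791 and 0.0825 with limma, and -0.0966 to 0.0819 with a library left out), TRIM8 (0.0067 with library totals), TRIM66 (-0.1873 to 0.2113), TRIM16L (-0.0377 to 0.2464), TRIM47 (-0.0527 to 0.1763) and TRIM34 (-1.5454 to 1.0003) with a library left out. Of DNaseI peaks, 6 members in vehicle (8.7%) and 2 in gemcitabine (2.9%) had a score of at least 100, against 6.38% and 7.83% of all genes, so that the count of members was lower in gemcitabine at this limit and higher without it.

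The replicate numbers pair nothing: deviations of same-numbered libraries had a correlation of -0.016, and with the number as a replicate block all 20 calls stayed, with 11 TRIM genes higher and 9 lower. With 2 libraries a group, low-count members such as TRIM22 are imprecise, and depth limits what can be said of 22 members.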

Other observations

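Domain groups outside those described above held few tested members. Of 3 tested with NHL repeats (TRIM2, TRIM3 and TRIM32), none passed, with 0 rises and 0 falls by edgeR at an adjusted p under 0.05 and log2 fold changes from -0.03 to 0.24. TRIM2, a neuronal ligase, was the nearest to the threshold, with 27.2 and 29.1 CPM in vehicle against 34.5 and 31.8 CPM in gemcitabine (adjusted p = 0.0551 by edgeR), and had an unadjusted p of 0.0218. Of 3 tested with a COS box, fibronectin repeat and SPRY domain, 0 passed, with values from -0.66 to 0.42. The muscle RING finger member TRIM54 had few reads, with log2 fold change 0.88 ± 0.43 (SE; adjusted p = 0.121 by edgeR). TRIM37, the ligase with a MATH domain, had 74.4 and 81.9 CPM against 76.8 and 86.5 CPM. These members were named after their values had been seen.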
